A study of Mus musculus with 4 samples.

Results

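This report compares the epithelium of the ileum with that of the proximal colon in wild type C57/Bl6 mice, measured on 1 short-oligonucleotide expression array for each region. The 2 arrays are 2 of the 4 in the series, and the other 2 hold the same regions from germ-free C57/Bl6 mice, which live without microorganisms. For each array about 16000 epithelial cells were cut out of frozen sections by laser capture, about 4000 from each of 4 mice, and their RNA was pooled. A 40 ng portion was amplified in 2 rounds and hybridised. The sources used here give neither the age nor the sex of the mice, and they mention hematoxylin staining for the germ-free samples alone. All 45037 probe sets that are not controls were used, and 34945 of them carry a single gene symbol, which gave 18193 genes. Each gene was read from its brightest probe set.

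Because 4 animals were pooled on 1 array per region, there is no replicate spread and no test, and every difference describes these 2 arrays alone. Values are fluorescence intensities in arbitrary units after quantile normalization, and the floor was set at 62.4, the pooled median of the 4 arrays. A gene counted as measured if it was above the floor on at least 1 wild type array, which held for 12000 genes. A value below the floor was replaced by it, so a difference against such a value is a lower bound and is written "at least". A gene is called higher in a region here if its intensity was at least 2-fold higher there.

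The ileum is the last stretch of the small intestine, lined by villi whose enterocytes digest peptides and sugars at their brush border and take up amino acids, fats, vitamin B12 and bile acids. The proximal colon has crypts without villi, rich in mucus-producing goblet cells, and its colonocytes absorb salt, water and the short-chain fatty acids made by bacteria. Paneth cells, which secrete antimicrobial proteins, sit at the base of small intestinal crypts and are normally missing from the colon.

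Both arrays carried an epithelial signal of similar strength. All 12 listed pan-epithelial markers were measured, none differed by 2-fold, and their median log2 difference (ileum minus colon) was 0.13. Epcam, an adhesion molecule of epithelial cells, read 9687 in colon against 11533 in ileum. Villin (Vil1), a brush border actin-bundling protein, read 5814 in colon against 10598 in ileum. Regional markers followed the labels: of 11 measured markers of absorptive enterocytes 8 were higher in ileum and 0 in colon, and of 16 measured colonocyte markers 7 were higher in colon and 0 in ileum. Several of these markers recur in the gene groups described further on.

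Markers of cells beneath the epithelium were detected, and several were higher on the wild type ileum array than on the other 3 arrays. Of 16 measured fibroblast and smooth muscle markers 7 were higher in ileum and 0 in colon, against 6.04% and 5.93% of all measured genes. Their log2 differences ran from -0.77 to 2.33 with a median of 0.18. With the floor at the 25th percentile, or with none, the median was 1.10. The listed markers summed to 5528 in colon and 10325 in ileum. Rgs5, a pericyte marker, read 523 in colon against 2632 in ileum, but 271 in colon against 193 in ileum in the germ-free mice. The adipocyte and endothelial fatty acid binding protein Fabp4 behaved likewise, with 229.8 in colon against 1190.1 in ileum in wild type and 129 in colon against 88.4 in ileum in germ-free mice. Smooth muscle actin (Acta2) read 1465 in colon against 3137 in ileum, and the intermediate filament protein vimentin (Vim) read 583 in colon against 1248 in ileum. Desmin (Des), its muscle relative, was below the floor in colon and 145 in ileum. Averaged over its probe sets Rgs5 had a log2 difference of 1.55. By the mean of their probe sets Fabp4, Acta2, Vim and Des were under 2-fold, with log2 differences of 0.72, 0.74, 0.97 and 0.43. In the germ-free pair 0 of 10 measured markers of this list differed by 2-fold. The contractile proteins Myh11 and Cnn1 were below the floor on both wild type arrays. How far stromal RNA contributes to the other ileum-high genes was not tested.

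Lists of plasma and B cell, intraepithelial and T lymphocyte, myeloid and endothelial markers held 7 to 9 measured genes. They reached 2-fold at shares from 11.1% (myeloid) to 28.6% (endothelial). Of 2 measured mast cell markers 0 were higher in ileum and 1 in colon. Among all measured genes 6.04% were higher in ileum and 5.93% in colon. Of 7 measured plasma and B cell markers only the J chain gene (Jchain) differed by 2-fold, at 1549 in colon against 4808 in ileum, and the immunoglobulin A heavy chain (Igha) read 4609 in colon against 7204 in ileum. Of 7 measured intraepithelial and T lymphocyte markers only granzyme A (Gzma) did, at 153 in colon against 447 in ileum, while the T cell receptor complex chains Cd3e, Cd3d and Cd3g were below the floor on both arrays. Among 9 measured myeloid markers Lyz2, the macrophage lysozyme, was the only one past 2-fold, at 101 in colon against 1791 in ileum, and its sequence is close to that of the Paneth cell lysozyme Lyz1. Of 7 measured endothelial markers 1 was higher in ileum and 1 in colon, Lyve1 from below the floor in colon to 242 in ileum, and Plvap with 208 in colon against 81.6 in ileum. Averaged over its probe sets Lyve1 was at 1.20 log2.

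**Figure D1:**
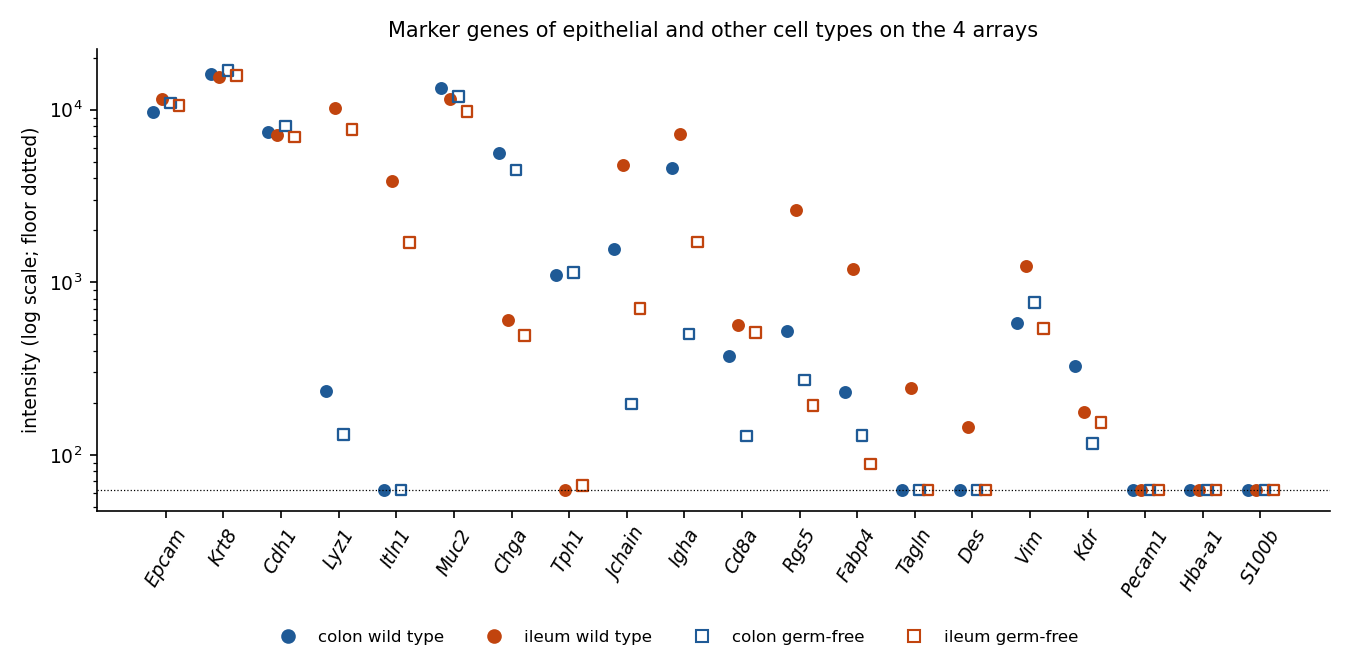
Intensities of marker genes of the epithelium and of other cell types on the 4 arrays (log axis, arbitrary units, values below the floor at the dotted line, 1 point per array). The epithelial markers Epcam, Krt8 and Cdh1 lie close together on all arrays, whereas Rgs5 and Fabp4 stand highest on the wild type ileum array.

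Control probe sets for RNA quality differed between the arrays, though not all in the same direction. The ratio of 5 prime to 3 prime signal was higher in ileum than in colon by 1.46 log2 for beta-actin and 0.64 log2 for Gapdh, and lower for pyruvate carboxylase, with a log2 difference of -0.29. For the transferrin receptor the 5 prime and 3 prime probe sets differed by 0.11 and 0.09 log2, the first at dim deposited intensities of 40.8 in colon and 44.1 in ileum. Signal from 18S ribosomal RNA was 0.43 log2 higher in ileum, against 0.18 log2 for the median of 9 hybridization controls. A second set of hybridization controls, not in that median, ran from -0.18 to 0.28 log2. In the germ-free pair the same ratios differed by 0.38 log2 for beta-actin, 0.01 for Gapdh and -0.14 for pyruvate carboxylase, the 18S signal by 0.84 and the hybridization controls by -0.32. The part of these values in the regional differences was not tested.

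Of the 12000 measured genes 725 (6.04%) were higher in ileum by 2-fold or more, and 712 (5.93%) were higher in colon. For 159 of the first and 146 of the second the other array was below the floor. Past 4-fold there were 216 genes (1.80%) for ileum and 182 (1.52%) for colon. Past 8-fold there were 87 (0.725%) and 63 (0.525%), and past 16-fold 42 (0.350%) and 26 (0.217%). Counted by probe set, 5.47% of 24347 measured ones reached 2-fold in favour of ileum and 5.49% in favour of colon. The median log2 difference of all measured genes was -0.01, with quartiles at -0.34 and 0.32. In such pooled captures fewer cells of a type and less RNA per cell cannot be told apart.

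Probe sets of the same gene give a measure of technical agreement, though not of variation between animals. Across 2491 genes with 2 bright probe sets, the log2 differences of the brightest and the next had a standard deviation of 0.33. Among 290 of these genes past 2-fold, the next probe set pointed the same way for 285 and was itself past 2-fold for 229.

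**Figure D2:**
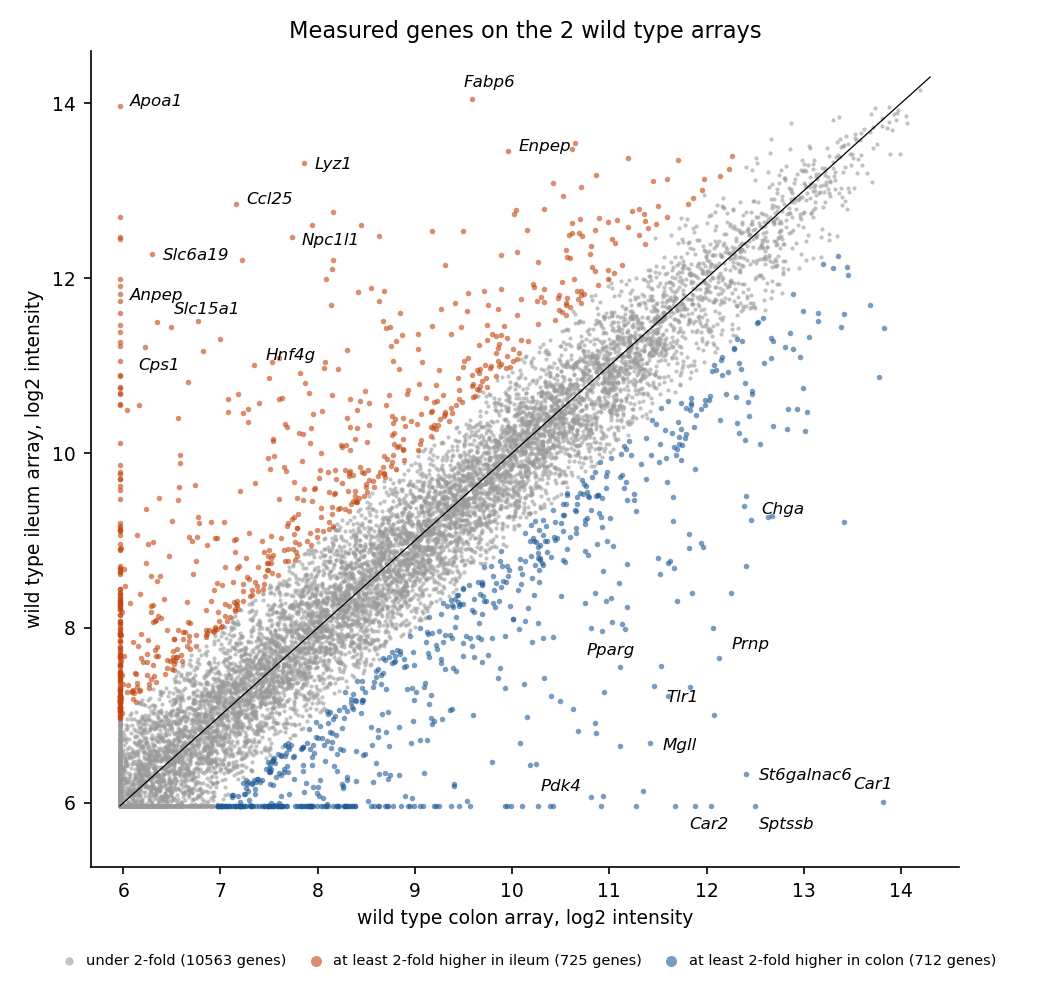
Intensity of each of the 12000 measured genes on the wild type colon array (horizontal, log2) and the wild type ileum array (vertical, log2), 1 point per gene, with the line of equality. Values below the floor are drawn at the floor. The 725 genes at least 2-fold higher in ileum are orange and 712 at least 2-fold higher in colon are blue.

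Of the 12 largest ileum-high differences among genes above the floor on both arrays, 4 were in amino acid and peptide carriers. The neutral amino acid transporter Slc6a19 had the largest ileum-high one, at 78.8 in colon against 4953 in ileum, 62.9-fold higher in ileum. The related imino acid transporter Slc6a20a read 246 in colon against 6234 in ileum, and Slc43a2, which exports amino acids from the cell, read 286 in colon against 6898 in ileum. Slc15a1, the brush border carrier of di- and tripeptides, read 81.3 in colon against 2887 in ileum, 35.5-fold higher in ileum. All 4 carriers stood between 78.8 and 286 in colon.

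The other 8 were of mixed function. Npc1l1, the cholesterol importer that ezetimibe blocks, read 213 in colon against 5677 in ileum, and the secreted phospholipase family member Pla2g12b 109 in colon against 2908 in ileum. Fabp6, the ileal bile acid binding protein, was above the floor in colon, at 767 in colon against 16920 in ileum, a log2 difference of 4.46. On the ileum array its probe set ranked 4 from the top, with a deposited intensity of 17571 near the array's maximum of 18156, and whether the signal was saturated there was not tested. Lyz1, the Paneth cell lysozyme, read 233 in colon against 10209.6 in ileum, a log2 difference of 5.46 that was 2.73 without probe sets prone to cross-hybridise. The chemokine Ccl25, which draws lymphocytes to the small intestine, read 143 in colon against 7366 in ileum, a log2 difference of 5.69 that was 3.08 by the mean of its probe sets. Cps1, the enzyme of the first step of the urea cycle, read 74.6 in colon against 2376 in ileum. The annexin Anxa13 read 149 in colon against 4732 in ileum, and Ms4a18 89.7 in colon against 2779.7 in ileum.

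Another 8 genes were named for a high intensity in ileum and a colon value below the floor. Apoa1, the main protein of high-density lipoprotein, read 16058, at least 257-fold higher in ileum. Mttp, which loads lipid onto apolipoprotein B, read 3112, at least 49.8-fold higher in ileum, and aminopeptidase N (Anpep) 3625, at least 58.0-fold higher in ileum. The anion exchanger Slc26a6 read 5696 and intelectin (Itln1), a carbohydrate-binding lectin, 3848. Clca4b, Bcl2l15 and the gene annotated as Fxr2 read 6672, 4061 and 3404. These 8 genes had differences of at least 49.8-fold, since the floor stands in for the colon.

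Car1, a cytosolic carbonic anhydrase of colonocytes, had the largest colon-high difference among the genes ranked above the floor on both arrays. It read 14384 in colon against 64.7 in ileum, 222-fold higher in colon. The sialyltransferase St6galnac6 read 5439.6 in colon against 80.5 in ileum, 67.6-fold higher in colon. Mgll, which splits monoacylglycerols, read 2729 in colon against 102 in ileum. Pdk4, which switches off pyruvate dehydrogenase, read 1796 in colon against 67.0 in ileum. The lipid flippase Atp11a read 3637 in colon against 161 in ileum, and the aldo-keto reductase Akr1b8 1951 in colon against 67.8 in ileum. On the ileum array these 6 genes stood between 64.7 and 161. The log2 differences of Mgll and Atp11a averaged over their probe sets were -1.78 and -2.20, against -4.73 and -4.50 by the brightest.

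The other 6 of the 12 largest colon-high differences follow. The transcription factor Mecom read 3103 in colon against 149.8 in ileum, the coactivator family member Ncoa7 4315 in colon against 129 in ileum, and the stress-induced Nupr1 4294 in colon against 256 in ileum. The prion protein gene Prnp read 4478 in colon against 202 in ileum, Mfap3l 2599 in colon against 70.2 in ileum, and Tlr1, a receptor for bacterial lipopeptides, 2818 in colon against 162 in ileum. For Mecom the other probe sets were below the floor, and by the mean of all of them its log2 difference was -0.43, under 2-fold. By that mean Ncoa7 and Mfap3l were at -1.97 and -2.88, against -5.07 and -5.21 by the brightest probe set.

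A set of 8 genes was bright in colon and below the floor in ileum. Sptssb, a small subunit of serine palmitoyltransferase, the entry enzyme of sphingolipid synthesis, read 5781 in colon, at least 92.6-fold higher in colon. Car2, a second cytosolic carbonic anhydrase, read 3774, at least 60.4-fold higher in colon, and the phenol sulfotransferase Sult1a1 3282, at least 52.5-fold higher in colon. The forkhead factor Foxd2 read 4229, but by the mean of its probe sets its log2 difference was -0.98, just under 2-fold. Carbonyl reductase 3 (Cbr3) read 2473, the sodium-calcium exchanger Slc8a1 1371, the glutamate receptor subunit Grin3a 1342 and the secreted matrix protein Ccn3 1228. The last 3 were each at least 19.7-fold higher in colon. Slc8a1 and Grin3a had log2 differences of -1.13 and -2.18 by the mean of their probe sets.

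**Figure D3:**
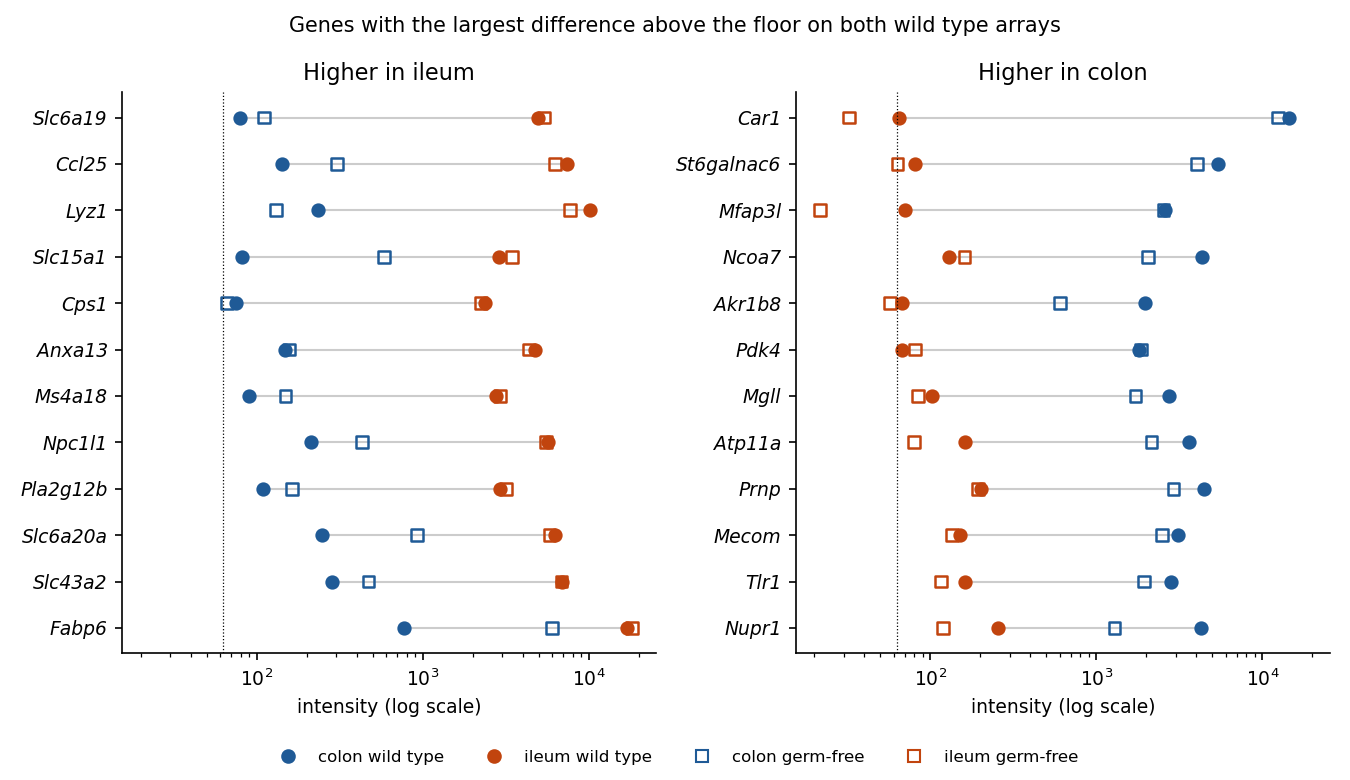
Intensities on the 4 arrays (log axis, arbitrary units, 1 point per array, floor dotted) of the 12 genes in each direction with the largest difference above the floor on both wild type arrays. Only genes whose measured probe sets all pointed the same way were ranked. Every gene lies on the same side of equality in the wild type and the germ-free pair.

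Digestion and absorption genes as groups leaned to the ileum. Of 10 measured brush border peptidases, 7 were higher in ileum and 0 in colon, with a median log2 difference of 2.84, against 6.04% and 5.93% of all measured genes and a median of -0.01. With the floor at the 25th percentile, or with none, the median was 1.66. Besides Anpep, neprilysin (Mme) and Xpnpep2, an aminopeptidase that cuts before proline, were below the floor in colon and read 1732 and 1884 in ileum, and by the mean of its probe sets Mme was at 3.20 log2. Dpp4, which removes dipeptides and inactivates incretins, read 347 in colon against 6251 in ileum. Enpep, the acidic-residue aminopeptidase, read 996 in colon against 11199 in ileum. By contrast Dpep1, a membrane dipeptidase, read 6350.4 in colon against 9469.9 in ileum, short of 2-fold. Ace read 93.9 in colon against 128 in ileum, also short of 2-fold. By the mean of its probe sets, however, Ace was past 2-fold, at 1.53 log2.

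Sugar digestion and transport gave 7 higher in ileum and 0 in colon among 8 measured genes (median 2.40, or 1.21 with the floor at the 75th percentile). Trehalase (Treh) was below the floor in colon and 832 in ileum, at least 13.3-fold higher in ileum. Maltase-glucoamylase (Mgam), which releases glucose from starch fragments, read 1678 in colon against 8425 in ileum. The fructose carrier Slc2a5 was below the floor in colon and 284 in ileum, while the sodium-glucose transporter Slc5a1 read 2404 in colon against 6989 in ileum. Ketohexokinase (Khk), which phosphorylates fructose, read 433 in colon against 2401 in ileum. The intestinal alkaline phosphatase Alpi read 1055 in colon against 7007 in ileum, the only one of 3 measured alkaline phosphatases past 2-fold.

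Peptide and amino acid carriers went both ways. Of 16 measured members 11 were higher in ileum and 2 in colon, with a median of 2.38, or 1.70 by averaged probe sets. Beyond the 4 transporters named above, the aromatic amino acid carrier Slc16a10 read 65.9 in colon against 1442 in ileum, and the glutamate transporter Slc1a1 340.3 in colon against 3672 in ileum. By the mean of its probe sets Slc16a10 was under 2-fold, at 0.35 log2. One of the 2 colon-high members, Slc6a14, a broad-range amino acid transporter, read 5441 in colon against 727 in ileum, 7.49-fold higher in colon.

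Fat and sterol absorption gave 14 higher in ileum and 1 in colon among 22 measured genes (median 1.99). The apolipoprotein Apoc3 was below the floor in colon and 1629.7 in ileum. Mogat2 and Dgat1, which rebuild triglycerides inside the enterocyte, read 374 in colon against 3795 in ileum and 1035 in colon against 6815 in ileum. The sterol exporter Abcg5 read 838 in colon against 3708 in ileum. The colon-high member was Scarb1, the high-density lipoprotein receptor, at 313 in colon and below the floor in ileum. Without probe sets prone to cross-hybridise Scarb1 had a log2 difference of -0.12.

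Enzymes of cholesterol synthesis leaned the same way. Of 19 measured enzymes 13 were higher in ileum and 0 in colon, and the log2 differences ran from -0.18 to 2.45 with a median of 1.45. Mvd, of the mevalonate pathway, read 179.6 in colon against 982 in ileum, and farnesyl diphosphate synthase (Fdps) 109.9 in colon against 587 in ileum. Squalene epoxidase (Sqle) read 1649 in colon against 5847 in ileum, and the demethylase Cyp51 1503 in colon against 5115 in ileum. Without such probe sets Mvd was 0.31 log2 apart. In fatty acid synthesis, by contrast, the 17 measured genes split, with 2 higher in ileum and 3 in colon. The sugar-responsive factor Mlxipl read 243 in colon against 1252 in ileum, whereas the acyl-CoA synthetase Acsl3 read 3313 in colon against 318 in ileum.

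Bile acid and vitamin B12 uptake, both known functions of the ileum, had several ileum-high genes. Of 8 measured bile acid genes 4 were higher in ileum and 1 in colon (median 1.06, or 0.72 without probe sets prone to cross-hybridise). The apical bile acid importer Slc10a2 read 261 in colon against 618 in ileum, and the exporter subunits Slc51a and Slc51b read 2535 in colon against 7112 in ileum and 3564 in colon against 6562 in ileum, the second short of 2-fold. Abcc2, an apical export pump, was below the floor in colon and 564 in ileum, and the basolateral pump Abcc3 was colon-high, at 6008 in colon against 1104 in ileum. Slc51a and Abcc2 could not be measured without probe sets prone to cross-hybridise. For vitamin B12, cubilin (Cubn) and amnionless (Amn), which form the receptor for the intrinsic factor complex, read 1569.7 in colon against 11404 in ileum and 1519 in colon against 4859 in ileum. Without probe sets prone to cross-hybridise Cubn was at 4.49 log2, against 2.86. The carrier protein transcobalamin (Tcn2) read 2155 in colon against 6481 in ileum. Of 8 measured vitamin B12 genes 4 were higher in ileum and 1 in colon. Their median was 0.61, but 0.09 with the floor at the 25th percentile and 0.23 by averaged probe sets. The hormone Fgf15, which bile acids induce in the ileum, was below the floor on both arrays.

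Nitrogen and glucose metabolism differed as well. Of 12 measured genes of arginine, urea and glutamine metabolism 8 were higher in ileum and 0 in colon. Ornithine transcarbamylase (Otc), the step after Cps1, read 284 in colon against 4404 in ileum, and Aldh18a1, which starts proline and ornithine synthesis from glutamate, 576 in colon against 2807 in ileum. Of 7 measured gluconeogenesis genes 4 were higher in ileum and 0 in colon. Glucose-6-phosphatase (G6pc) and Fbp1 were below the floor in colon and read 879 and 709 in ileum. Pck1, the pathway's best-known enzyme, read 479 in colon against 272 in ileum.

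Glycolysis leaned to the colon, with 0 higher in ileum and 4 in colon among 12 measured genes (median -0.58). Hexokinase 1 (Hk1) read 3981 in colon against 485 in ileum, and the basal glucose carrier Slc2a1 5345 in colon against 674 in ileum. Hexokinase 2 (Hk2) read 3239 in colon against 1075 in ileum, and the liver-type phosphofructokinase Pfkl 1948 in colon against 569 in ileum. The tricarboxylic acid cycle and fatty acid oxidation had shares close to or below the 6.04% and 5.93% of all measured genes, with 1 higher in ileum and 0 in colon of 17 in the first and 0 higher in ileum and 1 in colon of 20 in the second. The colon-high member of the second was Slc16a1, the monocarboxylate carrier that takes up butyrate, at 3678 in colon against 1579 in ileum.

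**Figure D4:**
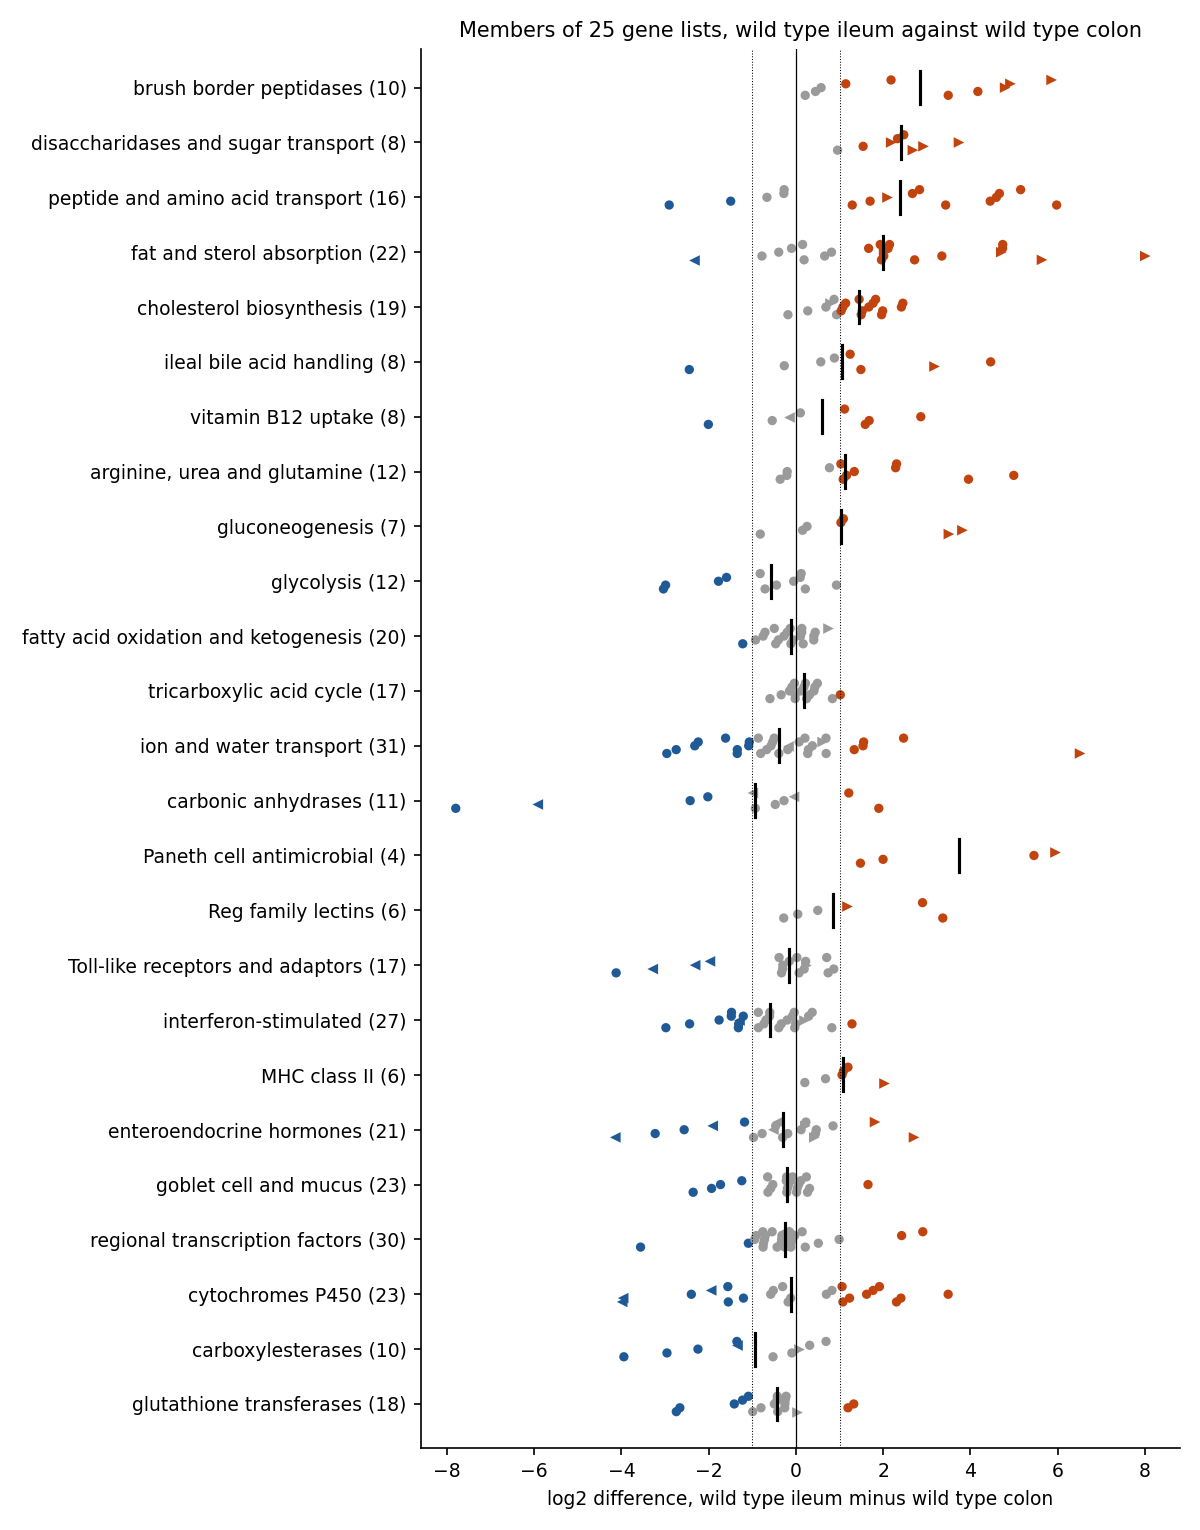
Log2 difference (ileum minus colon) of each measured member of 25 gene lists (1 point per gene), with the median of each list as a bar and dotted lines at 2-fold. Triangles are bounds against the floor, and the number measured is in brackets. The lists of digestion and absorption lie mostly to the right of 0, and carbonic anhydrases, carboxylesterases and interferon-stimulated genes have medians to its left.

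Salt and water transport held genes of both directions. Of 31 measured genes 5 were higher in ileum and 9 in colon (median -0.39), against 6.04% and 5.93% of all measured genes. The sodium-proton exchanger Slc9a3, which absorbs sodium, read 1937 in colon against 249 in ileum (-1.90 log2 by the mean of its probe sets, -2.96 by the brightest), and the water channels Aqp8 and Aqp4 read 545 in colon against 81.3 in ileum and 620.3 in colon against 124 in ileum. On the ileal side the chloride channel Cftr read 859 in colon against 2517 in ileum, and the phosphate carrier Slc34a2 1286 in colon against 7104 in ileum. The chloride-bicarbonate exchanger Slc26a3 read 8724 in colon against 4798 in ileum, short of 2-fold.

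Carbonic anhydrases, which interconvert carbon dioxide and bicarbonate, gave 2 higher in ileum and 4 in colon among 11 measured members. Among all measured genes these shares were 6.04% and 5.93%. Beyond Car1 and Car2, the membrane-bound Car4 read 7800.1 in colon against 1453 in ileum, and Car13 read 421 in colon against 974 in ileum in the opposite direction. In the guanylin pathway, which controls fluid secretion, uroguanylin (Guca2b) read 286 in colon against 4716 in ileum, and guanylin (Guca2a) 12822 in colon against 9399.5 in ileum. Their receptor Gucy2c read 3617 in colon against 2903 in ileum, so of these 3 genes only uroguanylin was past 2-fold. The calcium binder S100g and Slc8a1 were the 2 colon-high genes of 8 in calcium handling, S100g at 5434 in colon against 419 in ileum.

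Antimicrobial genes leaned to the ileum. Each of the 4 measured Paneth cell antimicrobial genes was higher there, of only 7 matched from 16 listed. Ang4, an angiogenin with antibacterial action, read 661 in colon against 2639 in ileum, and the matrix protease Mmp7, which activates defensins, 129 in colon against 360.03 in ileum. Of 6 measured Reg family lectins 3 were higher in ileum and 0 in colon. Reg3g, which kills Gram-positive bacteria, read 1602 in colon against 11960.5 in ileum, and Reg3a 579 in colon against 5966 in ileum. Reg3b read 10122 in colon against 14315 in ileum, short of 2-fold. Without probe sets prone to cross-hybridise Ang4 was under 2-fold, at 0.77 log2, and the median of the Paneth cell genes was 2.11 log2 against 3.73.

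Innate sensing lists held more colon-high than ileum-high members, where 6.04% of all measured genes were higher in ileum and 5.93% in colon. The 17 measured Toll-like receptors and adaptors had a median log2 difference of only -0.15, or 0.07 by averaged probe sets. Of them 0 were higher in ileum and 4 in colon. Besides Tlr1 these were Tlr2, its partner for lipopeptides, at 607, the flagellin receptor Tlr5 at 309.7 and the lipopolysaccharide receptor Tlr4 at 245, each below the floor in ileum. Of 27 measured interferon-stimulated genes 1 was higher in ileum and 9 in colon (median -0.60). Rsad2, an antiviral enzyme, read 3255 in colon against 412 in ileum, Ifit1, which binds viral RNA, 3228 in colon against 596 in ileum, and the transcription factor Irf7 5660.2 in colon against 1669.8 in ileum. The RNA sensor Ddx58 was the exception, at 367 in colon against 894 in ileum, though by the mean of its probe sets it was under 2-fold, at 0.83 log2. In the germ-free pair 1 of 25 measured genes of this list was higher in ileum and 3 in colon, Rsad2 reading 1005 in colon against 724 in ileum there.

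Class II antigen presentation genes leaned to the ileum, with 4 higher in ileum and 0 in colon of 6 measured. For all measured genes the shares were 6.04% and 5.93%. The class II chain H2-Ab1 read 776 in colon against 1774 in ileum, and the invariant chain Cd74 816 in colon against 1735 in ileum. Without probe sets prone to cross-hybridise H2-Ab1 was at 0.83 log2. The macrophage markers C1qb and Csf1r come from cells that also carry class II molecules. C1qb read 175 in colon against 208 in ileum, and was at 0.62 log2 by the mean of its probe sets. Csf1r read 1066 in colon against 1038 in ileum. The 9 measured myeloid markers had log2 differences from -0.95 to 4.15, with a median of 0.25. The part of such cells in the class II difference was not tested. For class I and the immunoproteasome 1 was higher in ileum and 0 in colon of 13, the peptide transporter Tap1 at 175 in colon against 362 in ileum, or 0.19 log2 by the mean of its probe sets. Among 22 measured cytokines and chemokines 5 were higher in ileum and 2 in colon. The growth factor Ereg read 248 in colon against 1397 in ileum, and Il15, which sustains intraepithelial lymphocytes, 1092 in colon against 362 in ileum.

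Markers of secretory cells divided by type, against 6.04% of all measured genes higher in ileum and 5.93% in colon. Of 23 measured goblet cell and mucus genes 1 was higher in ileum and 4 in colon, and the defining genes were close, with the mucin Muc2 at 13409 in colon against 11493 in ileum, and the trefoil peptide Tff3 at 14257 in colon against 14524 in ileum. The membrane mucin Muc4 read 1176 in colon against 229.7 in ileum, and the mucin glycosylation enzyme Gcnt3 8513 in colon against 2568 in ileum, both colon-high. By the mean of its probe sets Muc4 was under 2-fold, at -0.69 log2. Of 21 measured enteroendocrine genes 2 were higher in ileum and 5 in colon. Chromogranin A (Chga), a granule protein, read 5631 in colon against 602 in ileum, and chromogranin B (Chgb) 8381 in colon against 1419 in ileum. Tph1, which makes serotonin, read 1101 in colon and was below the floor in ileum. Somatostatin (Sst) went the other way, below the floor in colon and 219 in ileum. Of 8 measured tuft cell markers only Alox5ap differed, at 266 in ileum and below the floor in colon.

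Crypt genes were mixed, against 6.04% of all measured genes higher in ileum and 5.93% in colon. Olfm4, a small intestinal stem cell marker that mouse colon lacks, was below the floor in colon and 1721 in ileum, at least 27.6-fold higher in ileum. The Wnt target Axin2 read 224 in colon against 1198 in ileum, whereas Prom1 read 10936 in colon against 3081 in ileum, and Cd44 1509 in colon against 683 in ileum. By the mean of its probe sets Cd44 turned direction, at 0.20 log2. Of 21 measured crypt and Wnt genes 3 were higher in ileum and 5 in colon, and the stem cell receptor Lgr5 was below the floor on both arrays. Of 28 measured cell cycle and replication genes 7 were higher in ileum and 1 in colon (median 0.70). Cyclin D2 (Ccnd2) read 186 in colon against 1141 in ileum, and the proliferation marker Mki67 246 in colon against 700.1 in ileum.

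Regional transcription factors reached 2-fold about as often as all measured genes, with 2 higher in ileum and 2 in colon of 30 measured, against 6.04% and 5.93%. Hnf4g, a nuclear receptor of enterocytes, read 268 in colon against 2012 in ileum, a log2 difference of 2.91. Maf, a leucine zipper factor, read 1467 in colon against 7863 in ileum. On the colonic side Pparg, the nuclear receptor of fat cells and colonocytes, read 2215 in colon against 188 in ileum, 11.8-fold higher in colon, and the Wnt effector Tcf7l2 1808 in colon against 849 in ileum, which was at -0.84 log2 without probe sets prone to cross-hybridise. Among Hox genes, which pattern the body axis, 12 of 33 were measured and only Hoxc8 was past 2-fold, at 142 in ileum and below the floor in colon.

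Promoters of the measured genes were searched on both strands for 6 motifs of factors known in the intestine, in 300 bases around each gene's start (250 before to 50 after, RefSeq, GRCm38.p6). The HNF4 motif CAAAGTCCA, bound by the family of Hnf4g, occurred in 1.94% of 567 promoters of ileum-high genes, 0.704% of 568 of colon-high genes, 0.505% of 9705 of all measured genes and 0.477% of 27025 in the table. Among genes at least 4-fold higher it occurred in 8 of 173 promoters for ileum and 1 of 150 for colon. The 4-fold sets, and this motif rather than the others, were picked after the shares had been seen. The GATA motif, spelled AGATAA, occurred in 8.11% of ileum-high and 7.57% of colon-high promoters, against 6.70% of all measured genes. The CDX motif, spelled TTTATNG, occurred in 8.82%, 8.45% and 7.32% of these sets, and the TATA box, spelled TATAAA, in 10.2%, 10.2% and 7.79%. The palindromic HNF1 motif and the nuclear receptor inverted repeat with 1 base between its arms occurred in 0 promoters of measured genes.

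The following promoters show where the HNF4 letters lie before the start of 6 ileum-high genes and of Cyp2c65, a colon-high paralog of the ileum-high Cyp2c68. Each runs 5′ to 3′ along the gene's strand, with the match in capitals; in Treh and Ptpn22 it lies on the other strand.
Treh (chr9:44673136-44673196, plus strand): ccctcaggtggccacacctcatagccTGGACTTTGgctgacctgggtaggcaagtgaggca
Cyp3a11 (chr5:145879929-145879989, minus strand): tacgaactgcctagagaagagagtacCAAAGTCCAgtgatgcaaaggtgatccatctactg
Cd302 (chr2:60284583-60284643, minus strand): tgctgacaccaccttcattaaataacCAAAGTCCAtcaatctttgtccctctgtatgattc
Alpi (chr1:87101607-87101651, minus strand): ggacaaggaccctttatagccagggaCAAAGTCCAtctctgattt
Cyp2c68 (chr19:39741144-39741204, minus strand): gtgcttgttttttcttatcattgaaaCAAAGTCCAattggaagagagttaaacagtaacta
Ptpn22 (chr3:103859751-103859794, plus strand): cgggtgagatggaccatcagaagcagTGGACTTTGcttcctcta
Cyp2c65 (chr19:39060864-39060924, plus strand): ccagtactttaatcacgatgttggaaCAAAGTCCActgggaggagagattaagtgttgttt
The log2 differences of these genes were 3.74, 3.49, 3.37, 2.73, 2.30, 2.26 and -1.55, in the order shown. A match describes the letters and does not show that a factor binds there.

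Genes of xenobiotic metabolism split by family, against 6.04% of all measured genes higher in ileum and 5.93% in colon. Of 23 measured cytochromes P450 9 were higher in ileum and 7 in colon. Cyp3a11 and Cyp3a25 read 194 in colon against 2182 in ileum and 1234 in colon against 4650.1 in ileum, while Cyp2c55 read 14524 in colon against 2756 in ileum, and Cyp2d10 987 in colon and below the floor in ileum. Of 10 measured carboxylesterases 0 were higher in ileum and 5 in colon, such as Ces1g at 1853 in colon against 120.4 in ileum, and Ces2a at 8119 in colon against 1712 in ileum. Ces2a read 406 in colon against 653 in ileum in germ-free mice. Of 18 measured glutathione transferases 2 were higher in ileum and 5 in colon, with Gstm2 at 1232 in colon against 463 in ileum, and Gstk1 at 3615 in colon against 540.2 in ileum on the colonic side. For sulfation and glucuronidation 2 were higher in ileum and 3 in colon of 12, Sult2b1 among them at 269.7 in colon against 2101 in ileum. Members of these families share sequence, so a probe set can pick up a near relative.

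The remaining lists held a few large differences. Of all measured genes 6.04% were higher in ileum and 5.93% in colon. The retinol dehydrogenase Rdh7 was below the floor in colon and 2474 in ileum, and the alcohol dehydrogenase Adh1 read 7296 in colon against 1450.1 in ileum. Of 15 measured vitamin A genes 5 were higher in ileum and 3 in colon. Of 15 iron and heme genes 5 were higher in ileum and 1 in colon. The heme exporter Flvcr1 read 449 in colon against 2489 in ileum, and the iron exporter ferroportin (Slc40a1) 7606 in colon against 3607 in ileum. For zinc, copper and manganese 2 were higher in ileum and 2 in colon of 13, the zinc carriers Slc30a2 at 865 in ileum against a colon below the floor and Slc39a8 at 1137 in colon against 126 in ileum. Flvcr1, Slc39a8 and Gsdme were at 1.85, -1.38 and 1.06 log2 by the mean of their probe sets. Cldn15, a cation-permeable claudin, read 467 in colon against 2604 in ileum. Of 17 measured junction genes 2 were higher in ileum and 1 in colon, with a median log2 difference of 0.08. Among 15 fucosyl- and sialyltransferases 1 was higher in ileum and 4 in colon, St3gal4 reading 127 in colon against 2535 in ileum. The gasdermins Gsdmc2 and Gsdme went opposite ways, at 2013 in colon against 512 in ileum and 1188 in colon against 3919 in ileum, and of 10 oxidase and peroxide defence genes only the glutathione peroxidase Gpx2 was past 2-fold, at 524 in colon against 2332 in ileum.

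Some regional genes were neighbours on a chromosome. Runs of at least 3 adjacent measured genes, all higher in the same region, numbered 8 for ileum (25 genes) and 8 for colon (28 genes). The ileal runs included the apolipoprotein cluster Apoa1, Apoc3 and Apoa4 and the retinol dehydrogenases Rdh9, Rdh16, Rdh16f2 and Rdh7. Apoa4 was at 0.27 log2 without probe sets prone to cross-hybridise. The colonic runs included Cyp2d22, Cyp2d10, Cyp2d9, Cyp2d12 and Cyp2d34, and the glutathione transferases Gstm2, Gstm1 and Gstm4. A neighbour higher in the same region was found for 17.8% of ileum-high and 21.1% of colon-high genes, against 11.2% and 10.7% of the other measured genes. Several runs hold related genes, whose probe sets can pick up a near relative, and the part of this in these shares was not tested. At the 75th percentile floor Cyp2d9, Cyp2d12, Gstm4 and Rdh16 could not be measured.

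The germ-free pair, which shares no array with the wild type pair, gave the same regional order for most genes past 2-fold in wild type. There 7.37% of 11986 measured genes reached 2-fold in favour of ileum and 5.88% in favour of colon. Of 713 ileum-high wild type genes measured in both pairs, 689 had the same sign in germ-free mice and 431 (60.4%) were also past 2-fold. Of 701 colon-high genes 666 had the same sign and 463 (66.0%) were also past 2-fold. In reverse, 881 germ-free ileum-high and 701 germ-free colon-high genes were measured in both pairs. Of these 48.9% and 66.0% were past 2-fold the same way in wild type. Past 8-fold in wild type, 86 of 86 ileum-high and 62 of 63 colon-high genes were past 2-fold in germ-free mice. The log2 differences of the 2 pairs correlated across 11555 genes with Pearson's r of 0.79 and Spearman's rho of 0.60, as a description of genes that share their arrays.

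Some genes kept their order but differed in size. Fabp6 read 6008 in colon against 18189.5 in ileum in germ-free mice, a log2 difference of 1.60 against 4.46 in wild type, and Slc15a1 read 586 in colon against 3457 in ileum. In both cases the germ-free colon was brighter than the wild type colon. For Fabp6 the ileal values lie at the top of both arrays' range and cannot be compared closely. Cyp3a25 and Abcg5 were below the floor in the germ-free colon and read 2655 and 2534 in the germ-free ileum, with larger regional differences than in wild type. The serum amyloid gene Saa1 read 8267 in colon against 1216 in ileum in wild type and 14149 in colon against 195 in ileum in germ-free mice, so it was colon-high in both. Aqp8, colon-high in wild type, read 76.4 in colon against 130.5 in ileum without microorganisms. Slc30a10, a manganese carrier, read 2330.5 in colon against 303 in ileum in wild type and 179 in colon against 196 in ileum in germ-free mice. The genes of this paragraph were chosen after their values had been seen.

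Differences past 2-fold in opposite directions were rare, with 1 ileum-high and 5 colon-high wild type genes. Myl6b, a myosin light chain, read 70.7 in colon against 535 in ileum in wild type and 125 in colon and below the floor in ileum in germ-free mice. Slc37a2, a sugar phosphate transporter, read 315 in colon against 78.5 in ileum in wild type and below the floor in colon and 133 in ileum in germ-free mice. Gstt1, a glutathione transferase, read 1195 in colon against 511 in ileum in wild type and 272 in colon against 549 in ileum in germ-free mice. Aif1l read 427 in colon against 204 in ileum in wild type and 222 in colon against 526 in ileum in germ-free mice. With 1 array a group these opposite differences were not tested.

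**Figure D5:**
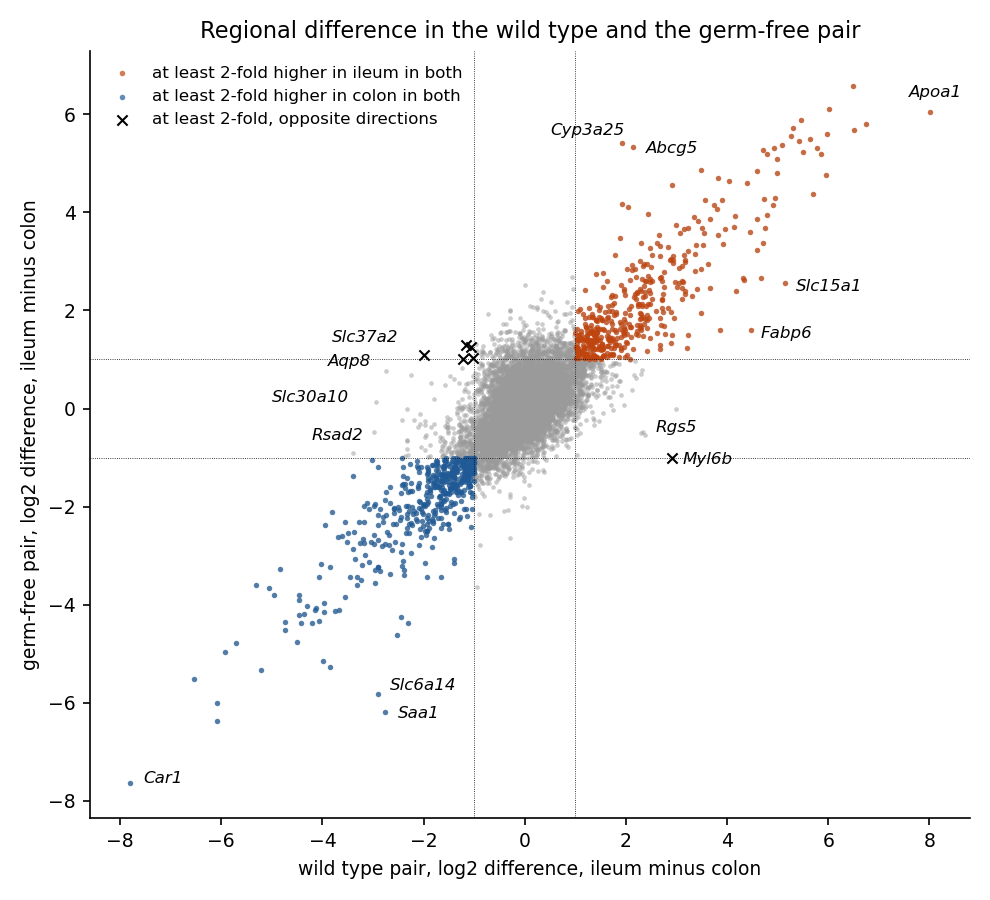
Log2 difference (ileum minus colon) of each of 11555 genes in the wild type pair (horizontal) and in the germ-free pair (vertical), with dotted lines at 2-fold. Genes past 2-fold the same way in both pairs are coloured, and the 6 genes past 2-fold in opposite directions are crosses.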

How the data were processed

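Affymetrix mouse arrays were read for 4 pools of laser-captured epithelium, 1 per group, and the 2 wild type pools were compared. Per the series' design text, the authors computed the deposited linear-scale intensities of the probe sets with dCHIP 2004. How that program was set (background, model, scaling) is not given in the sources used. Of 45101 probe sets 64 are controls.

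From there, values were quantile-normalized on the log2 scale over the 4 arrays, because the medians of the brighter probe sets differed by 0.32 log2. Genes were named through the platform annotation and a RefSeq gene table (GRCm38.p6), and 932 probe sets with several symbols and 9160 unnamed here were left out. Differences were log2 ileum minus colon, with no p-value, since there is 1 array a group. A gene with several probe sets took the one with the highest mean log2 intensity. Computations were checked on simulated data.

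Named genes were the 12 largest differences measured on both arrays and the 8 brightest against a floored array in each direction, up to 5 per list, and up to 6 opposite in the germ-free pair. Apart from the list members, they were drawn from genes whose measured probe sets all pointed the same way. Their brighter wild type array had to be above the pooled 75th percentile. Clone-named, sex-linked and house-keeping genes were skipped. Listed genes named beyond these, the 25 lists plotted and the promoters printed were chosen after their values were seen. The members and lists were chosen with earlier results of these data known. Alternatives were other scalings, other floors, averaging all probe sets of a gene, and leaving out probe sets that can cross-hybridise (those ending in _s_at or _x_at).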

Additional observations from a re-analysis of the deposited data

Results flagged for a closer look

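In 6 genes the regional difference went past 2-fold in opposite directions in the wild type and the germ-free pair, which was not tested with 1 array a group. The wild type log2 differences (ileum minus colon) were 2.92 for Myl6b, -2.00 for Slc37a2, -1.22 for Gstt1, -1.16 for the nicotinic receptor subunit Chrna3, -1.07 for Aif1l and -1.02 for the interferon receptor chain Ifnar2. In the germ-free pair they were -1.01, 1.09, 1.02, 1.30, 1.25 and 1.03 in the same order.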

How the results depend on the processing

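With the floor at the pooled 75th percentile, 427 genes were higher in ileum and 395 in colon, and with no floor 1789 and 1794, because these settings measure fewer or more dim genes. The other 6 settings gave 625 to 1031 genes higher in ileum and 522 to 990 in colon, each within 1.5 times the reported count. Of the named genes past 2-fold only Cd44 turned direction, to 0.20 log2 when its probe sets were averaged, and the cause was not tested. Averaging probe sets brought 12 of 170 such genes under 2-fold, and another 5 (Aqp4, Chrna3, Fdps, Ifnar2 and Tlr4) could not be measured. Leaving out probe sets prone to cross-hybridise brought 7 of 169 under 2-fold. Another 6 (Abcc2, Acta2, Cftr, Cyp2c65, Rdh9 and Slc51a) could not be measured that way. At the 75th percentile floor 12 of 163 were under 2-fold, among them Slc37a2, Aif1l, Gzma, Mmp7 and Slc2a5, and another 12 could not be measured. Scaling the wild type arrays alone brought Ifnar2 under 2-fold, with the other scalings moving none. By averaged probe sets 54.5% of the genes called were higher in ileum, against 50.5%. No paired analysis was possible because each group has 1 array, so no array could be left out either. Medians of 9 of 56 gene lists moved by over 1.5 times under some setting. Beside those given with their lists, the median of Paneth cell antimicrobial genes was 1.48 with no floor and 2.95 at the 75th percentile floor. At the 75th percentile floor the median of cytochromes P450 changed sign, to 0.83 from -0.12, and that of Reg family lectins was 1.70 against 0.84. Without probe sets prone to cross-hybridise that of alkaline phosphatases was 1.27 against 0.55. By averaged probe sets Cd302, Cyp2d22, Otc and Rsad2 had log2 differences of 2.65, -1.95, 3.37 and -2.23. Signal near background limits what can be read of dim genes.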
